A study of Mus musculus with 10 samples.

Results

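The 10 human genes described here, of 35395 identifiers in the deposited table, had low values in both numerator sets against one of its reference sets. They are ANKRD30A, ADAMTS15, SHISA2, ANO4, SH3RF3, FBLN1, OVAAL, L1CAM, PDPN and IQSEC1. The genes were chosen by their large falls in the second and the fourth of the table's 4 comparisons, which use the same reference libraries. Solving the table for whole reads showed each gene in each of 8 libraries. For 9 of the 10 genes both libraries of the second reference set lay above all 6 other libraries. L1CAM was the exception, because 1 library of the first reference set was as high as the second. Separation from the numerator libraries follows from the choice, and only the first reference libraries took no part in it. How many of all genes separate in this way was not counted. The first reference set was not always as low as the numerators. PDPN was called lower against it in the second numerator (log2 fold change -1.40, adjusted p under 0.05). Without a call, ADAMTS15, ANKRD30A and L1CAM also had values below 0 against it in both numerators. Those of ANKRD30A come from 0 and 3 reads in the numerator sets against 9. That of L1CAM in the first comparison was 1.57 without first reference library 1. Of the 10 values, 7 were above 0 in the first comparison and 5 in the third.

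Per the labels, RNA came from epididymal fat of male C57BL/6 mice. Of the 10 samples, 2 Ad-IGF2 samples came from mice given an adenovirus with IGF2 behind a CMV promoter, against 3 Ad-GFP samples from mice given the GFP adenovirus, with injection into the fat pads of diet-induced obese mice 2 times a week for 4 weeks. The 2 IGF2-RNAi samples came from mice given a lentivirus with a U6-driven hairpin against IGF2 by the tail vein at 3 to 4 weeks of age, against 3 NC-RNAi samples with the control lentivirus. None of the table's columns names a sample, and 0 of its identifiers are among the 55450 of the mouse annotation, so that no comparison could be tied to any of these mice. The sets are therefore called first and second numerator and first and second reference, with 2 libraries each. The first comparison set the first numerator against the first reference, the second the first numerator against the second reference, the third the second numerator against the first reference, and the fourth the second numerator against the second reference.

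The genes do not belong to 1 pathway. Several act at the cell surface or in the matrix around cells. ADAMTS15 is a secreted metalloprotease that cuts proteoglycans, FBLN1 is the matrix glycoprotein fibulin-1 of basement membranes and elastic fibres, L1CAM is an adhesion molecule of growing neurites that tumours also use, and PDPN is podoplanin, a mucin-type protein of lymphatic endothelium and podocytes that binds the platelet receptor CLEC2. Others work in membranes and signalling. SHISA2 belongs to a family whose founding member, in Xenopus, holds Wnt and FGF receptors back in the endoplasmic reticulum. IQSEC1 is an exchange factor that activates ARF6 in membrane recycling, SH3RF3 is a ubiquitin ligase and scaffold of the JNK pathway, and ANO4 is an anoctamin, a family of calcium-activated channels and lipid scramblases. ANKRD30A is a differentiation antigen of breast epithelium also known as NY-BR-1, and OVAAL is a long noncoding RNA first described in ovarian cancer.

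The base mean of a row in the authors' deposited table is the average of reads divided by a size factor per library, so that each read of a library adds a fixed step. Whole reads were solved from these sums. Every one of the 10 genes had exactly 1 solution in each of the first, the third and the fourth comparison, and the reads of a shared set were equal in both comparisons that held it. The base mean of the second comparison, deposited with fewer digits and not used in solving, was then predicted to within 6.3e-08 for all 10 genes. With the 2 second reference libraries exchanged, the smallest deviation was 7.9e-03. The 8 libraries held between 12.1 and 30.1 M reads (M, mega), as approximated from the size factors and summed side means of the authors' deposited table. Levels below are given as CPM (reads scaled by these totals) for this reason, and 1 read came to between 0.0332 and 0.0825 CPM.

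Among the matrix and adhesion genes, PDPN had 229 and 107 reads in the first numerator libraries, 37 and 41 in the second numerator, 170 and 94 in the first reference, and 819 and 896 in the second reference. In CPM, the 6 other libraries lay between 2.49 and 7.94 CPM and the second reference libraries at 49.7 and 56.2 CPM. The second reference set was thus apart from all others by at least 6.26-fold, and the second numerator set was the lowest.

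ADAMTS15 had 30 and 12 reads in the first numerator, 8 and 3 in the second numerator, 21 and 20 in the first reference, and 186 and 127 in the second reference libraries. Its second reference libraries stood at 11.3 and 7.97 CPM, and no other library exceeded 1.20 CPM. For FBLN1 the reads were 9 and 11 in the first numerator, 9 and 7 in the second numerator, 3 and 10 in the first reference, and 72 and 91 in the second reference libraries. In CPM these were at most 0.699 outside the second reference set and 4.37 and 5.71 within it, and the first 3 sets overlapped one another.

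L1CAM did not follow the pattern of the others. It had 203 and 57 reads in the first numerator, 22 and 19 in the second numerator, 280 and 28 in the first reference, and 208 and 226 in the second reference libraries. First reference library 1 stood at 13.1 CPM, inside the 12.6 to 14.2 CPM of the second reference libraries, whereas first reference library 2 stood at 1.67 CPM, close to the 1.48 and 1.57 CPM of the second numerator. The label of a gene low against the second reference alone did not hold for it. Nor did it hold fully for PDPN, which was called lower (adjusted p under 0.05) in the second numerator against the first reference set as well.

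**Figure D1:**
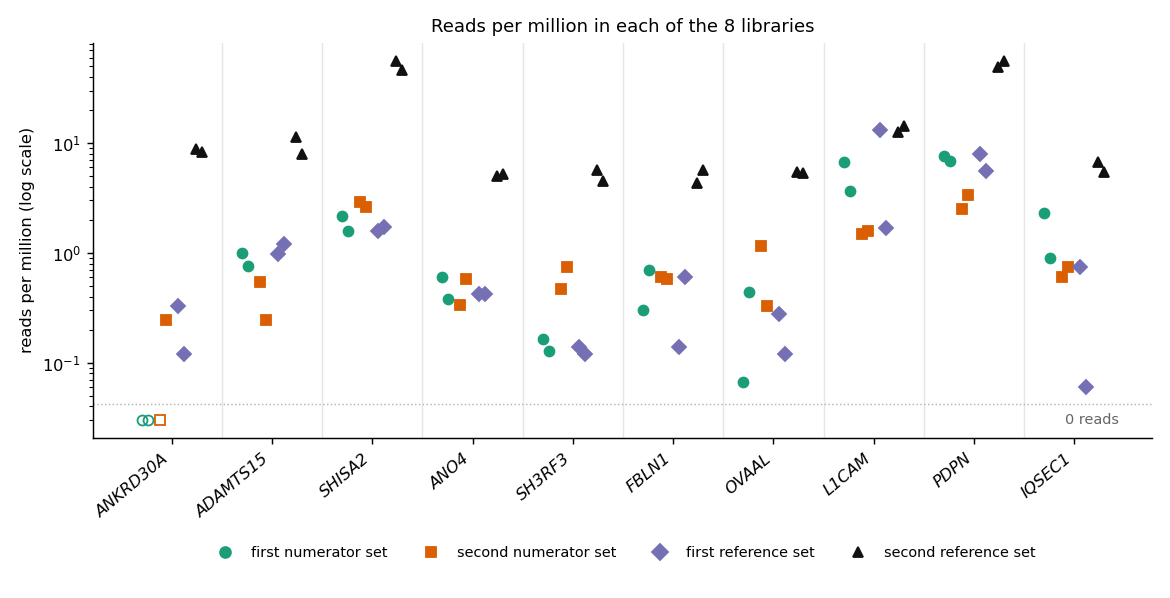
CPM (log axis) of the 10 genes in each of the 8 libraries, 2 points per set, with open symbols for 0 reads. The second reference libraries are above every other library for 9 genes, while the first reference library 1 of L1CAM, at 13.1 CPM, lies among them. Their distance from the numerator libraries follows from the choice of the genes.

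Among the membrane and signalling genes, SHISA2 had 65 and 25 reads in the first numerator, 43 and 32 in the second numerator, 34 and 29 in the first reference, and 921 and 732 in the second reference libraries. The 6 other libraries kept between 1.59 and 2.89 CPM, and the second reference libraries held 55.9 and 45.9 CPM.

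IQSEC1 had 69 and 14 reads in the first numerator, 9 and 9 in the second numerator, 16 and 1 in the first reference, and 110 and 86 in the second reference libraries. Its lowest second reference library, at 5.40 CPM, was 2.35-fold above the highest other library, first numerator library 1 at 2.29 CPM, which was the narrowest gap among the 9 genes. SH3RF3 had 5 and 2 reads in the first numerator, 7 and 9 in the second numerator, 3 and 2 in the first reference, and 94 and 72 in the second reference libraries. Its antisense gene SH3RF3-AS1 had at most 3 reads in a library, and whether counting used the strand is not given in the sources used here.

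ANO4 had 18 and 6 reads in the first numerator, 5 and 7 in the second numerator, 9 and 7 in the first reference, and 82 and 84 in the second reference libraries. The 3 lower sets of ANO4 overlapped between 0.336 and 0.598 CPM. OVAAL, the noncoding RNA, had 2 and 7 reads in the first numerator, 17 and 4 in the second numerator, 6 and 2 in the first reference, and 89 and 85 in the second reference libraries, which differed from each other by 1.01-fold.

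ANKRD30A came nearest to presence in 1 set alone. It had 0 and 0 reads in the first numerator, 0 and 3 in the second numerator, 7 and 2 in the first reference, and 145 and 133 in the second reference libraries. Its second reference libraries, at 8.81 and 8.35 CPM, were at least 25.5-fold above the highest other library. With 3 reads put in place of 0 over the first numerator set, ANKRD30A was 136-fold lower there than in the second reference set. This takes the 278 reads of the second reference set as exact. With 3 reads in the second numerator set against 278 in the second reference set, the second reference was 89.2-fold higher (95% exact interval 30.2 to 435, which covers counting error only). The 136-fold value and this interval come from the comparisons that chose the gene. They are a description and make no allowance for the choice.

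The first and the third comparison use the first reference set, which was not part of the values that chose the genes, although their numerator libraries were. In the first comparison within the authors' deposited table, 8 of the 10 genes had an adjusted p, and 0 were called lower (adjusted p under 0.05) against 0.0258% of all tested genes called lower. None of the 10 reached an unadjusted p under 0.05 there (0 of 10), and the share of all genes that did was not counted. The log2 fold changes of the authors' deposited table were above 0 for 7 genes and below 0 for 3, with a median of 0.13, against 0.01 over all tested genes. PDPN had a log2 fold change of 0.03 (SE 0.44) and SHISA2 of 0.13 (SE 0.69) in the first comparison within the authors' deposited table. ANKRD30A, with 0 against 9 reads, had -4.79 (SE 2.90, no adjusted p) in the authors' deposited table. With 3 reads put in place of 0 it was 3.75-fold lower. This takes the 9 reads as exact, so it is no lower bound. IQSEC1 had the largest positive value, 1.90 (SE 1.10, unadjusted p 0.0825). The standard errors ran from 0.44 to 2.90, and a p that misses the threshold does not show that the genes were equal in these sets.

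In the third comparison within the authors' deposited table, 1 of the 10 genes was called lower, against 16.1% of all tested genes. This was PDPN, with a log2 fold change of -1.40 (SE 0.44, adjusted p 0.00643), and its 37.0 and 50.4 normalised reads in the second numerator did not overlap the 134 and 94.9 of the first reference. L1CAM had the lowest value, -2.46 (SE 1.27, adjusted p 0.131), and without first reference library 1 it was -0.32. ADAMTS15 stood at -1.63 (SE 1.04) and SH3RF3 at 2.03 (SE 1.49) in the authors' deposited table, neither called. ANKRD30A, with 3 against 9 reads, was 2.41-fold lower (95% exact interval 0.601 to 13.8, which covers counting error only). Of the 10 values 5 were below 0 and 5 above, with a median of 0.23, against 0.09 over all tested genes.

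The second and the fourth comparison chose the genes, so their values are a description. In the second comparison within the authors' deposited table, 8 of the 10 genes were called lower, where 0.262% of tested genes were, with log2 fold changes from -10.04 (ANKRD30A) to -1.41 (L1CAM). The 2 not called were IQSEC1 (-1.94, SE 0.59, adjusted p 0.0837) and L1CAM (-1.41, SE 0.45, adjusted p 0.118). In the fourth comparison within the authors' deposited table, all 10 were called lower, where 17.5% of tested genes were, from -6.46 (ANKRD30A, SE 0.93) to -3.04 (OVAAL, SE 0.60). SHISA2 had -4.80 (SE 0.39) and -4.41 (SE 0.28), and PDPN had -2.92 (SE 0.35) and -4.39 (SE 0.28), in the second and the fourth comparison within the authors' deposited table.

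**Figure D2:**
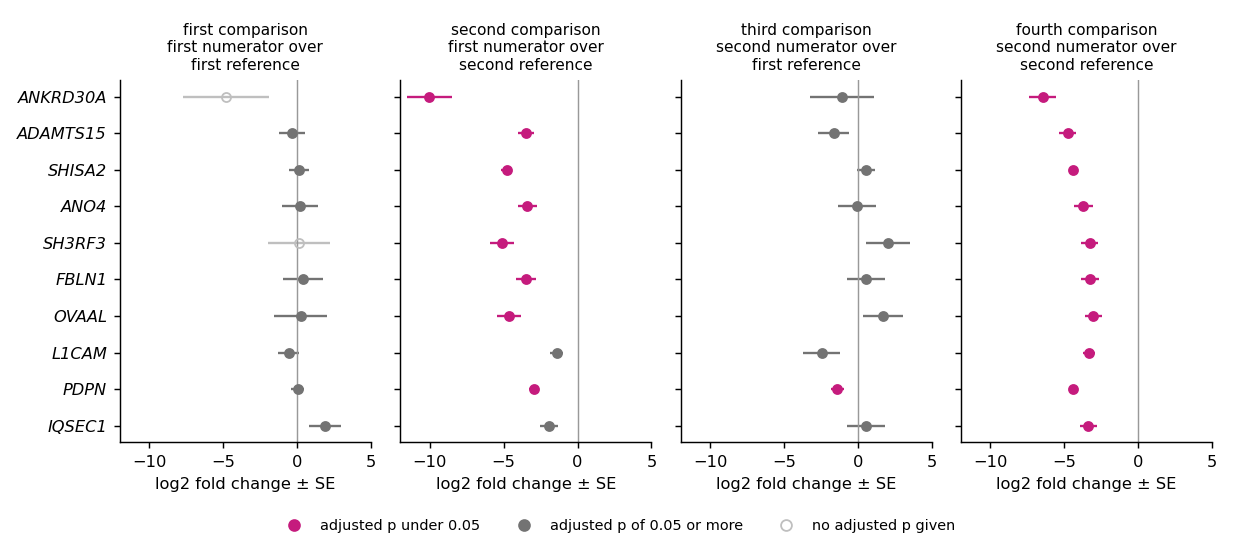
Log2 fold changes of the authors' deposited table with their standard errors (bars) for the 10 genes in the 4 comparisons. Values against the second reference set (the second and the fourth panel) lie between -10.04 and -1.41, and those against the first reference set (the first and the third panel) lie between -4.79 and 2.03, with PDPN alone called.

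The choice had neighbours on both sides, given for called falls whose base mean reached 2 CPM, a level that most of the genes reach only through the second reference set. In the second comparison within the authors' deposited table ANO4 stood at -3.40. The next genes, the collagenase MMP1 at -3.31 and FBLN2 at -3.16, were no members. The member PDPN came below them at rank 11 with -2.92, so no single cutoff in this comparison parted members from other genes. MMP1 also had -3.08 in the fourth comparison within the authors' deposited table, beyond the -3.04 of the member OVAAL. In the fourth, the genes from ANO4 to FBLN1 ran from -3.72 to -3.30 in the authors' deposited table. NUDT4B, with -4.55 there, was no member, and its second comparison value in the authors' deposited table was -0.12. AC016596.1, with -4.45 in the fourth and -1.22 in the second, was no member either, while the member L1CAM had -1.41 in the second.

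Each pair of comparisons with a shared numerator gives the first reference set against the second, with no test because the second reference set chose the genes. The second minus the first comparison within the authors' deposited table gave a median of -3.84 on the log2 scale for the 10 genes, where a negative value is lower in the first reference set, and 0.02 over the 13075 genes of at least 2 CPM in the second comparison. The fourth minus the third gave -3.87 for the 10 genes. In mean CPM the first and the second reference set stood at 0.130 and 5.11 for SH3RF3, 0.223 and 8.58 for ANKRD30A, and 1.66 and 50.9 for SHISA2, and the second was 39.4-fold, 38.4-fold and 30.7-fold higher. For OVAAL the second reference set was 26.8-fold higher. IQSEC1, FBLN1 and ANO4 were 15.0-fold, 13.7-fold and 12.2-fold higher in the second than in the first reference set, and ADAMTS15 and PDPN 8.85-fold and 7.81-fold. Several of these folds, and with them their order, rested on 1 first reference library. Without library 1 or without library 2 of that set, the second reference was 101-fold or 8.08-fold higher for IQSEC1 and 8.43-fold or 36.0-fold for FBLN1. For ANKRD30A it was 71.7-fold or 26.2-fold, for OVAAL 44.9-fold or 19.2-fold, and for L1CAM, 1.82-fold with both libraries, 8.01-fold or 1.02-fold. For the other 5 genes it stayed within 1.5 times of the value with both.

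The 10 genes ran from -5.26 for SH3RF3 to -0.84 for L1CAM. These differences hold the values that chose the genes, and 8 of the 10 reached 2 CPM in the second comparison but not in the first, so their place among all genes follows from the choice and the filter.

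**Figure D3:**
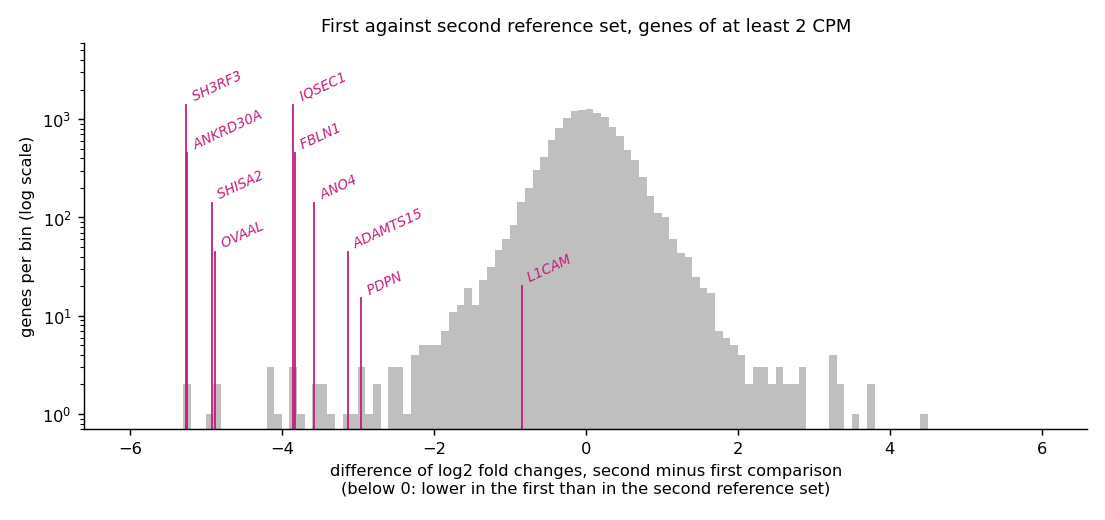
Histogram (log axis, counts of genes) of the difference between the second and the first comparison within the authors' deposited table for 13075 genes of at least 2 CPM, with the 10 genes marked. Of the genes, which were chosen on these values, 9 lie at -5.26 to -2.95 and L1CAM lies at -0.84.

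The 2 libraries of a set agreed to different degrees. In the second reference set they differed by 1.01-fold to 1.42-fold for the 10 genes. In the first reference set, library 1 over library 2 was 7.81-fold for L1CAM and 12.5-fold for IQSEC1, whose library 2 held 1 read. Among 6214 genes with at least 15 reads over that set and a base mean between 5 and 150 in the first comparison, the median fold between its libraries was 1.37, and 49 genes, or 0.789%, were as far apart as L1CAM or farther. Among the 1723 with at least 100 reads, L1CAM was 1 of 2 so far apart. For PDPN the same libraries differed by 1.41-fold and for SHISA2 by 1.09-fold. ANKRD30A, SH3RF3, FBLN1 and OVAAL had fewer than 15 reads over that set and were not among the 6214 genes. Libraries 1 and 2 held 0.327 and 0.120 CPM of ANKRD30A, 0.140 and 0.120 of SH3RF3, 0.140 and 0.598 of FBLN1, and 0.280 and 0.120 of OVAAL.

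**Figure D4:**
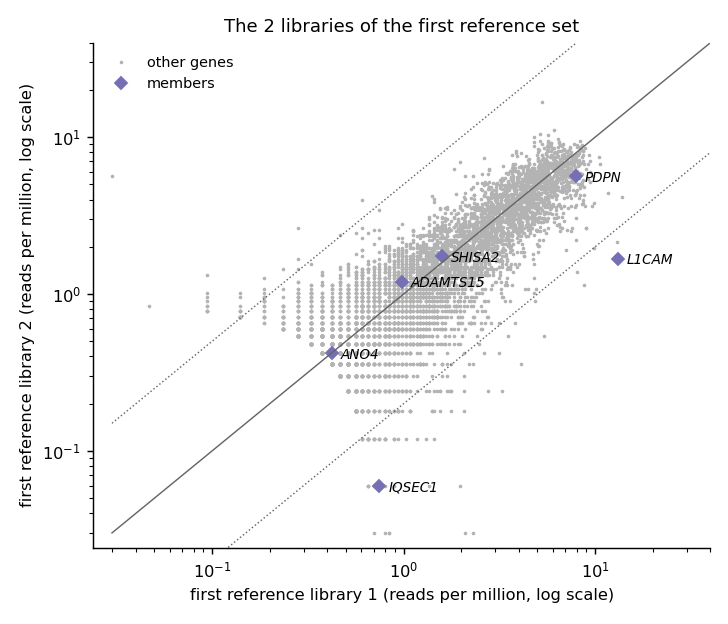
CPM (log axes) of 6214 genes in library 1 and library 2 of the first reference set, with the line of equal levels (solid) and of 5-fold differences (dotted) and, on the lower or left edge, genes with 0 reads in a library. L1CAM and IQSEC1 fall outside the dotted lines, while PDPN, SHISA2, ADAMTS15 and ANO4 lie near equality. ANKRD30A, SH3RF3, FBLN1 and OVAAL had fewer than 15 reads over this set and are not shown.

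The numerator sets also differed from each other in part of the genes. L1CAM had 1.48 and 1.57 CPM in the second numerator against 6.75 and 3.62 CPM in the first, a ratio of mean CPM of 0.294. The ratio of the second to the first numerator was 0.407 for PDPN, 0.423 for IQSEC1 and 0.446 for ADAMTS15, and in each of these 4 genes both second numerator libraries lay below both of the first. SHISA2 and SH3RF3 went the other way, without overlap. SHISA2 had 2.89 and 2.64 CPM in the second numerator against 2.16 and 1.59 CPM in the first, a ratio of 1.48. SH3RF3 had 0.471 and 0.742 CPM in the second numerator against 0.166 and 0.127 CPM in the first, a ratio of 4.14 that rests on 16 and 7 reads. ANO4, FBLN1 and OVAAL overlapped between the numerator sets. No comparison within the authors' deposited table sets these libraries against each other, and with 2 against 2 an exact two-sided permutation test cannot go below 0.333, so none of these differences was tested. How many of all genes lie apart between the numerator sets was not counted. The separation can therefore not be read as particular to these genes.

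Relatives of the 10 genes were followed in 11 lists of families, partners and epithelial or mesenchymal genes, which hold 104 other genes. Of 79 tested in the first comparison within the authors' deposited table, 0 were called lower and 0 higher, beside 0.0258% of all genes called higher and the same share lower. An unadjusted p under 0.05 was reached by 5 list genes there, and the share of all genes that did was not counted. Of 70 tested in the second, 3 were called lower and 3 higher (4.29% each), where 0.262% and 0.558% of all tested genes were. The lists were chosen with earlier results of these data known, so this difference is a description and was not tested. In the third comparison 20 of 91 were called lower (22.0%) and 17 higher (18.7%), where 14.8% of all tested genes were called higher. In the fourth 20 of 89 were called in each direction (22.5%), near the 17.5% lower and 17.2% higher of all tested genes.

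The 3 relatives called lower in the second comparison within the authors' deposited table were ADAMTS2, the protease that trims procollagen, FBLN2, the matrix protein fibulin-2, and CD9, a tetraspanin that binds podoplanin. In the authors' deposited table ADAMTS2 had log2 fold changes of -2.19 (SE 0.34) in the second and -2.85 (SE 0.22) in the fourth comparison, and 0.32 (SE 0.40) and -0.30 (SE 0.32) in the first and the third. Its second reference libraries held 63.4 and 63.2 CPM, and no other library exceeded 15.0 CPM. CD9 had 14.0 and 10.0 CPM in the second reference set and at most 4.52 CPM elsewhere. FBLN2 had 22.0 and 26.0 CPM there, and its second numerator libraries, at 6.46 and 6.43 CPM, stood above the first reference libraries at 1.96 and 0.957 CPM, with a log2 fold change of 1.95 (SE 0.50, adjusted p 0.000784) in the third comparison within the authors' deposited table.

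The 3 called higher in the second comparison were ADAMTS13, the protease of von Willebrand factor, HMCN1, the fibulin relative hemicentin-1, and ADAMTS7, a protease of cartilage matrix named because the count was small. Their log2 fold changes were 3.02 (SE 0.75), 1.75 (SE 0.48) and 2.24 (SE 0.53) in the second comparison within the authors' deposited table. Against the first reference set, ADAMTS13 had 2.53 (SE 0.80) in the first comparison and 2.53 (SE 0.63) in the third, called in the third. HMCN1 had 0.13 (SE 0.42) and -0.32 (SE 0.29) there, and ADAMTS7 1.02 (SE 0.50) and -0.65 (SE 0.38), without a call. In the fourth comparison within the authors' deposited table SH3RF1 and SH3RF2, the scaffolds closest to SH3RF3, had 0.81 (SE 0.22) and 1.01 (SE 0.21), both called higher, whereas ARF6, the target of IQSEC1, had -0.90 (SE 0.17), called lower. Radixin (RDX), of the ezrin family of linkers that podoplanin binds, had -1.39 (SE 0.18) there, called lower. The same 4 genes were called in the same direction against the first reference set in the third comparison within the authors' deposited table, with 0.71 for SH3RF1, 0.62 for SH3RF2, -1.11 for ARF6 and -1.40 for RDX. In the second, none of the 4 was called, with -0.17, 0.37, -0.03 and -0.26 in the authors' deposited table. Of the 14 mesenchymal genes 0 were called in either direction in the second comparison within the authors' deposited table (median 0.21), and in the fourth 5 were lower and 2 higher (median -0.19). Of the 14 epithelial genes 5 were tested in the second comparison with 0 called, and 9 were tested in the fourth, with 2 lower and 1 higher. Of all genes tested in the fourth comparison, 17.5% were called lower and 17.2% higher. The counts of these and the following lists are small and were not tested against those shares. Counted the same way in the fourth comparison within the authors' deposited table, 1 of 15 ADAMTS proteases was lower and 5 were higher, and 2 of 5 fibulins were lower and 1 higher. Of 8 genes of the L1 family and its partners 1 was lower and 2 higher, and of 6 podoplanin partners 4 were lower and 1 higher. Of 8 anoctamins 0 were lower and 2 higher, of 15 ARF genes 4 lower and 2 higher, of 6 SHISA genes 1 lower and 2 higher, and the 1 tested ANKRD30 relative was called in neither direction. With adjustment over genes of at least 2 CPM, genes called higher numbered 3 among ADAMTS proteases, 0 among anoctamins and 0 among SHISA genes.

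Among 12619 other genes whose base mean reached 2 CPM in every comparison, the 5 whose 4 log2 fold changes lay nearest to the medians of the 10 genes were PXDN, SEMA3F, ADAMTS2, HIST1H1E and KRTAP2-3. Their Euclidean distances were 1.19, 1.44, 1.56, 1.74 and 2.18. PXDN, the matrix peroxidase peroxidasin, had log2 fold changes of 0.77, -2.70, 0.52 and -2.99, from the first comparison to the fourth, within the authors' deposited table (SE 0.60, 0.41, 0.55 and 0.31). SEMA3F, a secreted semaphorin, had 1.02, -2.40, 0.25 and -3.21 (SE 0.46, 0.37, 0.40 and 0.25) in the authors' deposited table. ADAMTS2 is described above. HIST1H1E, a linker histone, had 0.06, -2.12, -0.60 and -2.83 (SE 0.82, 1.36, 0.63 and 0.49), and KRTAP2-3, a keratin-associated protein of hair, had -0.20, -1.91, -1.07 and -2.82 (SE 0.66, 0.55, 0.59 and 0.43) in the authors' deposited table. Neither was called in the second comparison, with an adjusted p of 0.688 for HIST1H1E and 0.0619 for KRTAP2-3 in the authors' deposited table. In PXDN the second reference libraries held 26.6 and 22.3 CPM and no other library exceeded 4.69 CPM, and in SEMA3F they held 43.7 and 55.6 CPM beside at most 11.6 CPM. Asking for 2 CPM in every comparison leaves out genes that are low outside the second reference set, and 8 of the 10 genes themselves do not reach it in the first comparison. With 2 CPM asked for in the second and the fourth comparison alone, a setting chosen after seeing the data, the 5 nearest of 12847 genes were PXDN, MMP1, SEMA3F, ADAMTS2 and NLGN4X, a neuroligin, with MMP1 at a distance of 1.28 and NLGN4X at 1.69.

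Genes that mark fat cells were nearly absent from these libraries. The summed base mean of 10 adipocyte genes came to between 1.85 and 3.67 CPM in the 4 comparisons of the authors' deposited table, and leptin (LEP) had no row in the first and the second. Markers of lymphatic endothelium, a usual site of podoplanin, summed to between 0.217 and 0.268 CPM in the reference sets and 1.77 to 2.04 CPM in the numerators. Their part in the level of PDPN was not tested. The 5 mammary luminal genes summed to 69.5 CPM in the second numerator and 29.5 CPM in the second reference of the fourth comparison, and to 29.5 CPM in the first numerator and 33.8 CPM in the first reference of the first. By base mean, KRT7 alone gave 22.4 of 49.5 CPM in the fourth comparison and 12.9 of 31.6 CPM in the first. In each of these comparisons 1 of the 5 genes was under 1 CPM. The part of the 5 genes in the level of ANKRD30A was not tested. Fewer cells of a type and less RNA per cell cannot be told apart in such bulk values.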

How the data were processed

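The labels name Novogene as the sequencing provider and OmicStudio for the analysis; no aligner, counter or genome build could be taken from them. The deposited table holds 4 unnamed comparisons. Per the file headers it gives, for each, a base mean (a normalised signal, in reads divided by size factors), a log2 fold change, its standard error on the log2 scale, a test statistic (a score), a p-value and an adjusted p-value. None of its 24 value columns could be tied to a sample, so the planned edgeR tests between groups of mice could not be run, and every p printed is the authors' own. The design text speaks of 2 replicate sequencings in each group, and no source says whether libraries of a set came from separate animals or cultures, so p-values may measure technical spread only.

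The members and lists were chosen with earlier results of these data known. Genes were called at an adjusted p under 0.05. Base means were scaled to CPM of the sum of base means. Step sizes (the value of 1 read) were found from rows with a base mean below 1.6 and sharpened by least squares; whole reads were then searched within 1e-12 plus 4e-14 times the base mean (Python 3.11.15, numpy 2.4.6). This gave 1 solution for all 10 genes and for 8143 of 8143 background genes. The method was tested on simulated data with known reads. CPM of single libraries use totals approximated from size factors, which differed by at most 0.968% between comparisons. Named genes were the 10 members, called members of lists (at most 4 a list), the 5 nearest patterns and the genes next to the members in rank. Sequences are not shown, and human gene coordinates were not used here.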

Additional observations from a re-analysis of the deposited data

How the results depend on the processing

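The number of the 10 genes called lower stayed at 0 in the first comparison and 1 in the third comparison with adjustment over genes of at least 2 CPM, over all rows with a p, by the selection in the design text (unadjusted p under 0.05, fold change of 1 on the log2 scale) and after centring on the median gene. In the second it was 8 under these settings except the design text's selection, which took all 10, and in the fourth it was 10 under each. The median difference between the reference sets, -3.84, was -3.87 from the fourth and the third comparison, -3.85 after centring and -3.84 from reads. It was -3.53 with 2 numerator and 3 reference libraries assumed and -4.14 with 3 and 2, against 2 and 2 in the solved reads. Leaving out each reference library in turn gave -4.25 to -3.81. List genes called higher in the fourth comparison numbered 13 in place of 20 with adjustment over genes of at least 2 CPM, and those called lower 21 in place of 20. Genes under 2 CPM cannot be called under this setting. Reads were also unique for all 10 genes at 10 times the tolerance.

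Of 150 log2 values of single genes with a library left out, 135 moved by less than their standard error, 15 by more, and 0 of those called changed sign. L1CAM in the first comparison was 1.57 without first reference library 1 and -1.39 without library 2. IQSEC1 without first reference library 1 was 4.68 in the first and 3.31 in the third comparison, against the 1 read of library 2, and FBLN1 without first reference library 2 was 1.77 and 1.90. OVAAL in the second comparison was -3.64 without first numerator library 1 and -6.39 without library 2, and in the first -1.65 without library 2. In the fourth comparison ANKRD30A, ADAMTS15 and OVAAL were -5.32, -5.49 and -4.23 without second numerator library 1. L1CAM and IQSEC1 in the second were -1.93 and -2.81 without first numerator library 1. No paired analysis was possible because no column carries a sample or a replicate number; the planned fits of mouse groups were not run. ANKRD30A and SH3RF3 had 0 to 16 reads a set outside the second reference set, which limits their values there. The same limit holds for FBLN1, OVAAL and ANO4, with at most 11, 17 and 18 reads a library there. IQSEC1 had 16 and 1 reads in the first reference and 9 and 9 in the second numerator, and ADAMTS15 8 and 3 in the second numerator.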
